A study of Mus musculus with 21 samples.

Results

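The comparison described here sets pituitaries of virgin *Zeb1 200M* females against pituitaries of virgin WT females, with small-RNA-seq as the readout and miRNAs as the features. Libraries were chosen by their labels alone (cohort and genotype): 3 WT libraries, numbered as replicates 1, 2, and 4, and 4 *Zeb1 200M* libraries, numbered 1 to 4, which are 7 of the 21 libraries of the series and 7 of its 11 virgin libraries. Every library came from another mouse. WT mice (label Zeb1_WT) carried unaltered *Zeb1*, and *Zeb1 200M* mice (label Zeb1_200M) were homozygous for a knock-in allele with point mutations in the miR-200a/b sites of the *Zeb1* untranslated region. Both groups were females on a C57BL/6J background, 8 to 12 weeks old, virgin, and staged for proestrus. The study's lines go back to the ES cell clones 6B6 and 3C5 and were backcrossed, and the labels do not give the clone behind each library. The tissue was pituitary, a gland of several hormone-secreting cell types together with stem and supporting cells, vessels, and a neural lobe. In such a bulk sample, fewer cells of a type and less RNA per cell cannot be told apart.

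As background, ZEB1 is a zinc-finger repressor of epithelial genes, and miR-200 miRNAs repress *Zeb1* while ZEB1 represses the promoters of the miR-200 clusters, so that each holds the other down. A miRNA is cut from one arm of a hairpin, and the opposite arm can yield another, usually scarcer, miRNA. Hairpins that lie close together can be cut from a single primary transcript and are called a cluster, and miRNAs that share bases 2 to 8 of the mature sequence, the seed, form a family with largely shared predicted targets. The question put to the other miRNAs of this gland was which of them differ when *Zeb1* can no longer be held down through its miR-200 sites, and whether they differ by cluster, by family, or by abundance.

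WT replicates 1, 2, and 4 held 3816917, 10806313, and 9029142 counted reads, and *Zeb1 200M* replicates 1 to 4 held 10515664, 9508346, 8502878, and 10260660. Levels are given as CPM, the counts scaled to the total of their library, and fold changes come from edgeR after TMM normalization, so that a log2 fold change can differ from the ratio of mean CPM. The WT libraries held 836, 1046, and 1045 miRNAs with at least 1 count, and the *Zeb1 200M* libraries held 1061, 1070, 1061, and 1076. The 3 most abundant miRNAs took 36.9, 26.9, and 27.3% of reads in the WT libraries and 24.9, 25.7, 24.5, and 28.0% in the *Zeb1 200M* libraries. WT replicate 1 thus had the smallest total, the fewest miRNAs, and the largest share in a few miRNAs. For the 474 miRNAs whose WT counts averaged 50 or more, WT replicate 1 lay below both other WT libraries for 329 and above both for 121, with a median log2 CPM difference of −0.71. The SD of that difference across miRNAs was 0.99, against 0.22 for WT replicate 2 minus WT replicate 4. Results are therefore given with and without this library for the calls and most fold changes. Without it, WT is represented by 2 mice.

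The tissue label was checked against miRNAs known from endocrine pituitary cells. MiR-7a-5p, which is abundant in pituitary and pancreatic islets, was the most abundant miRNA in WT, with 183265, 117851, and 117503 CPM in WT replicates 1, 2, and 4 and 103292, 124169, 105458, and 124952 CPM in the *Zeb1 200M* libraries. MiR-375-3p, a miRNA of endocrine cells, was next, with 145158, 103399, and 108188 CPM in WT and 82247, 76828, 77023, and 94542 CPM in *Zeb1 200M*. Both were among the most abundant miRNAs in all 7 libraries. For miR-7a-5p, WT replicate 1 stood above every other library, and the ranges overlapped. Every *Zeb1 200M* library held less miR-375-3p than every WT library.

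Of 1909 miRNAs listed, 1318 were counted in 1 or more of the 7 libraries, and 678 passed the expression filter and were tested. The edgeR test called 44 of the 678, or 6.49%, at a Benjamini–Hochberg adjusted p below 0.05, and adjusted p values are of this kind throughout. MiRNAs called in this way are referred to as increased (18, 2.65%) or decreased (26, 3.83%), and 30 of the 44 changed more than 2-fold. The 10 miR-200 strands were all among the decreased, which leaves 16 decreased miRNAs outside them. The CPM ranges of the groups did not overlap for 39 of the 44, against 238 of all 678 tested (35.1%). The 5 called miRNAs with overlapping ranges were miR-31-3p, miR-335-3p, and, named after their values were seen, miR-152-3p, miR-484, and miR-494-3p. All 5 were decreased, and for each of them it was WT replicate 1 alone that reached into or below the *Zeb1 200M* range. The median log2 fold change over the miRNAs tested was −0.003.

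With WT replicate 1 left out, the same test called 168 of 703 miRNAs (23.9%), 94 increased (13.4%) and 74 decreased (10.5%), around a median log2 fold change of 0.04 over the miRNAs tested. All 44 were among them, with the same sign. The median standard error of a log2 fold change over the miRNAs tested went from 0.27 with the library to 0.14 without it. The difference between the counts therefore comes with a narrower spread within WT as well as with other fold changes. Why WT replicate 1 stands apart was not tested.

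**Figure D1:**
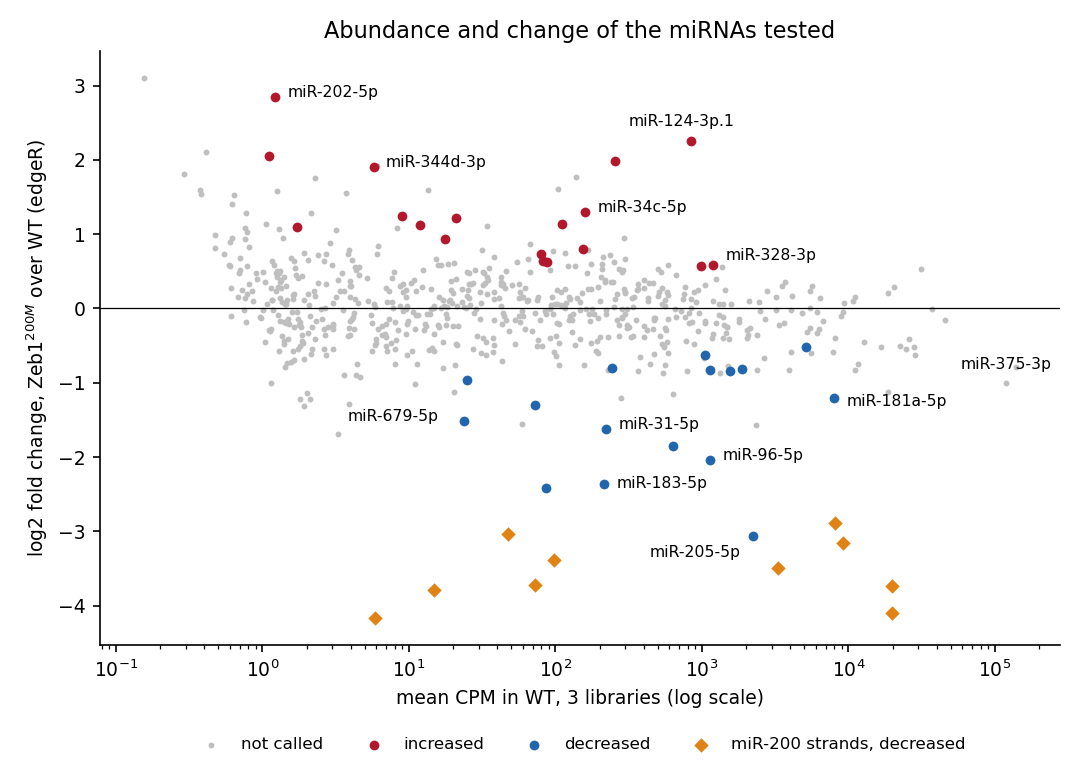
The vertical axis gives the log2 fold change of *Zeb1 200M* over WT from edgeR and the horizontal axis the mean CPM of the 3 WT libraries on a log scale, with 1 point for each of the 678 miRNAs tested and colours for the calls. Increased miRNAs sit mostly at the left (median WT level 80.9 CPM), decreased miRNAs mostly at the right (845 CPM), and the 10 miR-200 strands (diamonds) span −4.17 to −2.89 on the vertical axis.

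The miR-200 strands supply the scale on which the other changes can be read. Their sum was 69074, 55998, and 55569.5 CPM in the WT libraries and 7010.2, 6714, 6685, and 7219.5 CPM in the *Zeb1 200M* libraries. It took 6.02% of counted reads in WT and 0.691% in *Zeb1 200M*. The 16 other decreased miRNAs summed to 22243, 23932, and 24841 CPM in WT and 15363, 14963, 14983, and 15599 CPM in *Zeb1 200M*, and the 18 increased miRNAs to 2471, 4690.3, and 4900.5 CPM and 13186, 12048, 13471, and 10376 CPM. WT replicate 1 had the highest miR-200 sum of the WT libraries and the lowest sum of both other sets. Members of both other sets were called on these same values, so the direction of their sums was fixed in advance.

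Outside the miR-200 strands, the largest decreases came from 3 loci known from epithelial and sensory cells, *Mir205*, the *Mir183* cluster, and *Mir31*. MiR-205-5p, a miRNA of basal epithelial cells that also targets *Zeb1*, was measured at 1102, 2599, and 3033 CPM in WT and 350, 316, 324, and 336 CPM in *Zeb1 200M*. The *Zeb1 200M* libraries were nearly equal and lay below each WT library, and WT replicate 1 was the lowest of the WT libraries. The log2 fold change was −3.07 with all WT libraries and −3.25 without WT replicate 1. The other arm of its hairpin, miR-205-3p, was near the detection limit, at 1.83, 1.02, and 2.10 CPM in WT and 0.285, 0.316, 0.470, and 0.487 CPM in *Zeb1 200M*. It did not pass the expression filter with 7 libraries and was decreased without WT replicate 1 (−2.11, edgeR, adjusted p = 0.0137). It passed the filter there only through the WT libraries, so that its call adds no support to that of miR-205-5p. *Mir205* lies at chr1:193507463-193507530 (GRCm38).

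*Mir183*, *Mir96*, and *Mir182* form a cluster (chr6:30165918-30169737, minus strand) that is transcribed in sensory epithelia, retina, and inner ear, among other tissues. MiR-183-5p was at 178, 226, and 243 CPM in WT and 52.3, 61.2, 51.7, and 54.4 CPM in *Zeb1 200M*, and its shifted form miR-183-5p.2 at 69.4, 93.6, and 93.8 CPM and 22.3, 23.1, 16.7, and 21.3 CPM. MiR-96-5p was at 955, 1201, and 1233 CPM in WT and 362, 341, 321, and 418 CPM in *Zeb1 200M*. MiR-182-5p was at 466, 705, and 728 CPM in WT and 223, 226, 214, and 247 CPM in *Zeb1 200M*. For all 4 sequences, each *Zeb1 200M* library was below each WT library, and WT replicate 1 was again the lowest WT library. Summed over the cluster, WT libraries held 1669, 2227, and 2300.2 CPM and *Zeb1 200M* libraries 659, 651, 603, and 741 CPM, a log2 fold change of −2.04 (SE 0.13, edgeR, adjusted p = 7.52e-06 over the clusters tested) and −1.96 without WT replicate 1. The opposite arms, miR-183-3p, miR-96-3p, and miR-182-3p, had at most 1.11 CPM in any of the 7 libraries and were not tested.

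MiR-31, a miRNA of stratified epithelia, comes from a hairpin in an exon of a long noncoding RNA (chr4:88910557-88910662), and both of its arms were called. MiR-31-5p was at 226, 221, and 219 CPM in WT and 92.9, 102, 87.9, and 105 CPM in *Zeb1 200M*. MiR-31-3p was at 13.4, 31.2, and 30.1 CPM in WT and 16.5, 15.7, 17.5, and 15.0 CPM in *Zeb1 200M*. The 5p arm was even across the WT libraries and separated the groups, whereas for the 3p arm WT replicate 1 was below all 4 *Zeb1 200M* libraries. Log2 fold changes were −1.63 and −0.96 with all libraries, and −1.34 and −1.08 without WT replicate 1.

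The mature sequences of miR-205-5p, the *Mir183* cluster, and both miR-31 arms are given from RefSeq (GRCm38.p6) with the seed, bases 2 to 8, in capitals. No pair of them shares bases 2 to 8, while miR-96-5p and miR-182-5p share bases 2 to 7.
miR-205-5p: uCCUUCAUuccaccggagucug
miR-183-5p: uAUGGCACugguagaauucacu
miR-96-5p: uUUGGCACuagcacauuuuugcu
miR-182-5p: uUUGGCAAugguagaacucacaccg
miR-31-5p: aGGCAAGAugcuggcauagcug
miR-31-3p: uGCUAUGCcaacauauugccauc

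MiR-181a-5p and miR-181b-5p, known from lymphocyte development and from brain, share a seed and a pair of clusters. MiR-181a-5p was the most abundant decreased miRNA outside the miR-200 strands, at 10045, 6854, and 7071 CPM in WT and 5107, 4741, 4369.9, and 5319 CPM in *Zeb1 200M*. MiR-181b-5p, named after its values were seen, was at 1903, 1886, and 1859 CPM in WT and 1501, 1430.1, 1295, and 1567 CPM in *Zeb1 200M*. Both were lower in every *Zeb1 200M* library than in every WT library, and for miR-181a-5p WT replicate 1 stood far above the others. The log2 fold change of miR-181a-5p was −1.20 (SE 0.29) and, without that library, −0.67 (edgeR, adjusted p = 3.81e-04). For miR-181b-5p it was −0.81 and −0.53. The seed family of 4 tested members, summed, was at 13833, 10149, and 10375 CPM in WT and 7872, 7461, 6874, and 8404 CPM in *Zeb1 200M*. It missed the threshold with 7 libraries (−1.06, edgeR, adjusted p = 0.0565) and was decreased without WT replicate 1 (−0.60, edgeR, adjusted p = 7.17e-04). The pair is printed because abundant members of a single family fell together.
miR-181a-5p: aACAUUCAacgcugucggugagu
miR-181b-5p: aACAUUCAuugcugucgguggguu

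*Mir335* lies in an intron of *Mest*, an imprinted gene that is expressed from the paternal copy (chr6:30741299-30741396). MiR-335-3p was at 926, 1279, and 1207 CPM in WT and 814, 763, 825, and 935 CPM in *Zeb1 200M*. Its other arm, miR-335-5p, is the more abundant, with 23384, 15970.4, and 16482 CPM in WT and 12569, 11328, 11196, and 12654 CPM in *Zeb1 200M*. The 5p arm was lower in each *Zeb1 200M* library than in each WT library, but its log2 fold change of −1.13 missed the threshold (SE 0.29, edgeR, adjusted p = 0.056) while WT replicate 1 stood well above the other WT libraries. Without that library it was called, with −0.60 (edgeR, adjusted p = 2.73e-04), beside −0.73 for the 3p arm. Counted as a hairpin, *Mir335* was decreased in both fits (−1.12 and −0.64).
miR-335-5p: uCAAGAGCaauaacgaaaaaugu
miR-335-3p: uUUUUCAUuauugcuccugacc

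*Mir151* lies in an intron of *Ptk2*, which encodes focal adhesion kinase (chr15:73254815-73254882). MiR-151-5p was at 1561, 1523, and 1552 CPM in WT and 1212, 1205, 1214, and 1042 CPM in *Zeb1 200M*, and its other arm, miR-151-3p, at 442, 329.5, and 324 CPM and 271, 295, 270.3, and 294 CPM. The 5p arm was decreased with a log2 fold change of −0.84, or −0.56 without WT replicate 1. The 3p arm separated the groups too and was called only without that library (−0.37).

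The remaining decreased miRNAs were scarcer or changed less. *Mir670* lies in its own noncoding host gene (chr2:94261300-94261399), and miR-670-3p was at 81.7, 68.8, and 66.8 CPM in WT and 35.6, 29.3, 39.5, and 56.3 CPM in *Zeb1 200M*. *Zeb1 200M* replicate 4 was the highest of its group for miR-670-3p and came closest to WT (−1.29, without WT replicate 1 −0.91). Its other arm, miR-670-5p, at 21.5, 18.5, and 20.5 CPM and 11.2, 8.73, 13.5, and 15.7 CPM, was called only without WT replicate 1 (−0.82). MiR-679-5p, from the imprinted *Dlk1-Dio3* region of chromosome 12, was at 29.3, 22.5, and 19.6 CPM in WT and 7.89, 12.5, 13.1, and 11.9 CPM in *Zeb1 200M*, without overlap. Its opposite arm, miR-679-3p, was at 5.50, 1.76, and 2.55 CPM in WT and 1.24, 1.26, 1.41, and 1.07 CPM in *Zeb1 200M* and was not called in either fit. The log2 fold change of miR-679-5p was −1.52, and −1.06 without WT replicate 1. MiR-494-3p, from the same region, was at 147, 278, and 306 CPM in WT and 153, 189, 177, and 187 CPM in *Zeb1 200M*, with WT replicate 1 below every *Zeb1 200M* library (−0.80, without WT replicate 1 −0.89). Of this region's miRNAs, only these 2 were called with 7 libraries. MiR-484 (−0.62, without WT replicate 1 −0.72) and miR-152-3p (−0.52 and −0.46), from an intron of *Copz2*, completed the set. WT replicate 1 was the lowest of all 7 libraries for both.

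**Figure D2:**
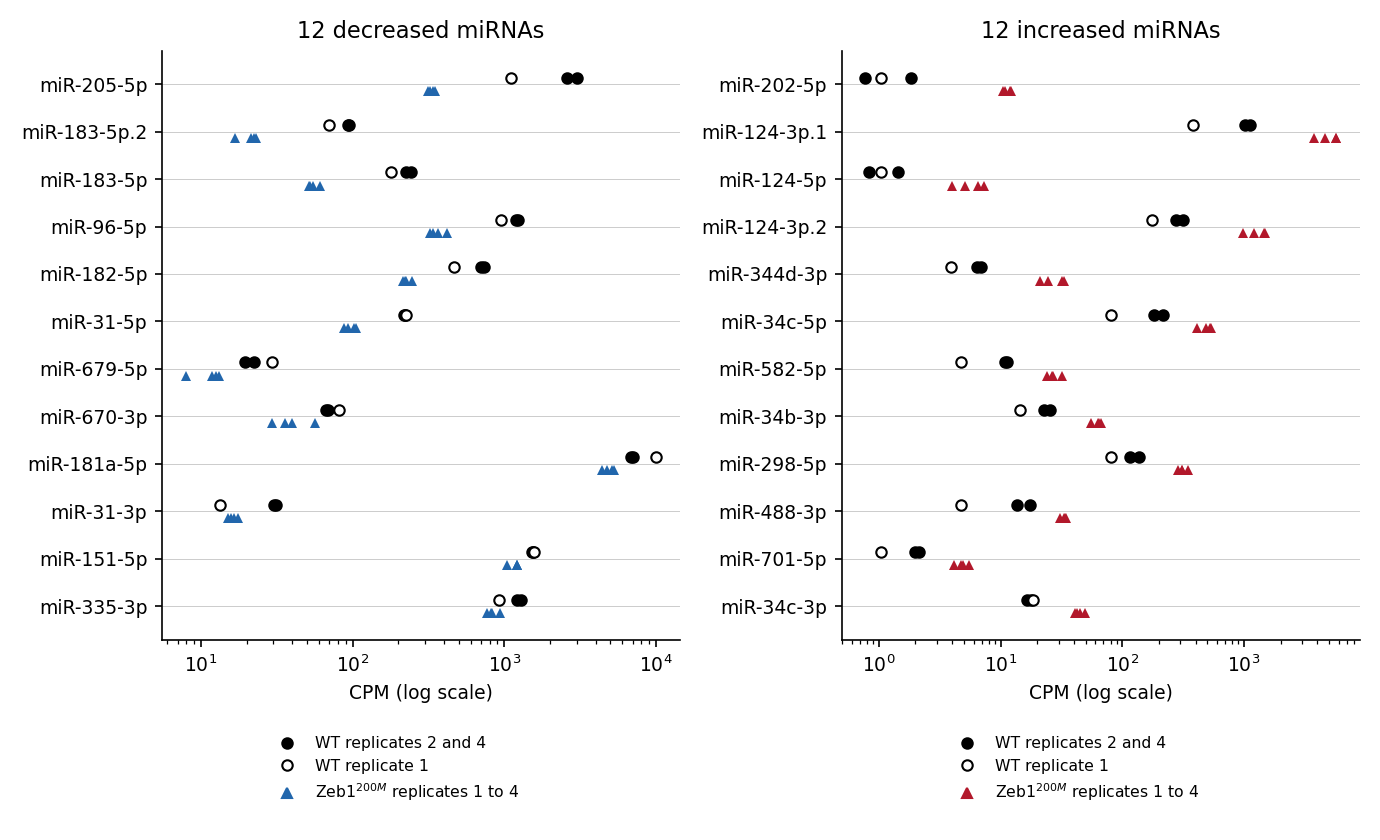
Each row is a miRNA, with the CPM of the 7 libraries on a log scale: circles for WT (open for replicate 1) and triangles for *Zeb1 200M* replicates 1 to 4, for the 12 decreased and the 12 increased miRNAs with the largest fold changes outside the miR-200 strands. Triangles form tight groups beside the circles in nearly every row, while the open circle departs to either side, as for miR-31-3p (13.4 CPM in WT replicate 1 against 31.2 and 30.1).

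Among the increased miRNAs, the most abundant in *Zeb1 200M* pituitary was miR-124, the classical miRNA of neurons, whose 3 hairpins lie on different chromosomes and were not assigned to a cluster. MiR-124-3p.1 was at 383, 1019.8, and 1113 CPM in WT and 5653, 4622, 5717, and 3777 CPM in *Zeb1 200M*, and miR-124-3p.2, the same arm with a shifted start, at 175, 274, and 316 CPM and 1499, 1215, 1462, and 989.6 CPM. Its 5p arm, miR-124-5p, was at 1.05, 0.833, and 1.44 CPM in WT and 6.56, 4.00, 7.29, and 5.07 CPM in *Zeb1 200M*. All 3 sequences were higher in every *Zeb1 200M* library than in every WT library. *Zeb1 200M* replicates 1 and 3 held the most of each and replicate 4 the least of both 3p forms. Log2 fold changes were 2.26, 1.98, and 2.05, and without WT replicate 1 2.05, 1.97, and 2.18. MiR-124-5p passed the expression filter through the *Zeb1 200M* libraries, with WT levels near that filter. The size of its change thus rests on few WT reads, and its call adds no support to those of the 3p forms.

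MiR-202-5p, best known from the gonads, had the largest log2 fold change among the increased miRNAs (2.84, without WT replicate 1 2.91) at a low level. It was at 1.05, 1.85, and 0.775 CPM in WT and 10.9, 11.9, 10.5, and 12.3 CPM in *Zeb1 200M*, so that the lowest *Zeb1 200M* library held several times the highest WT library. Its opposite arm, miR-202-3p, had 0, 0, and 0.111 CPM in WT and 0.761, 0.105, 0, and 1.27 CPM in *Zeb1 200M* and was not tested. *Mir202* and *Mir7686* form a cluster (chr7:139957566-139957760) that overlaps an exon of the long noncoding RNA *Gm2044*. MiR-344d-3p was at 3.93, 6.39, and 6.87 CPM in WT and 31.9, 21.1, 32.9, and 24.6 CPM in *Zeb1 200M*, again without overlap (1.90 with WT replicate 1 and 1.90 without). Its cluster neighbours on chromosome 7 (chr7:61726249-61742425), which can be assigned to a single locus, summed to 0.524, 1.11, and 1.77 CPM in WT and 4.85, 4.21, 4.35, and 3.12 CPM in *Zeb1 200M*. No neighbour was called alone with 7 libraries, and the sum was increased (1.43, edgeR, adjusted p = 0.0268 over the clusters tested, and 1.34 without WT replicate 1). With 7 libraries, miR-202-5p and this sum passed the expression filter only with *Zeb1 200M* libraries counted, since WT levels lay near or below it. The size of each change thus rests on few WT reads, and the call of the sum with 7 libraries adds no support to that of miR-344d-3p. Both increased sequences are printed because their changes were the largest with a RefSeq entry.
miR-202-5p: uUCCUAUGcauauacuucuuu
miR-344d-3p: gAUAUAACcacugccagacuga

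*Mir34b* and *Mir34c* form a cluster on chromosome 9 (chr9:51103034-51103645, opposite an intron of *Btg4*) that is known from multiciliated cells and testis. MiR-34c-5p was at 81.2, 215, and 183 CPM in WT and 530.1, 537, 487, and 408 CPM in *Zeb1 200M*. MiR-34c-3p was at 18.3, 16.4, and 17.7 CPM in WT and 49.0, 45.3, 42.2, and 40.7 CPM in *Zeb1 200M*. MiR-34b-3p was at 14.4, 22.9, and 25.4 CPM in WT and 66.7, 62.9, 64.4, and 55.4 CPM in *Zeb1 200M*. These 3 were increased, and their *Zeb1 200M* libraries lay above all WT libraries. The fourth strand, miR-34b-5p, was at 17.0, 155, and 143 CPM in WT and 419, 349, 411, and 338 CPM in *Zeb1 200M*, with WT replicate 1 far below the rest. Its log2 fold change of 1.61 had an SE of 0.50 and was not called (edgeR, adjusted p = 0.105). Against WT replicates 2 and 4 it was 1.19 (edgeR, adjusted p = 2.42e-05), beside 1.14, 1.22, and 1.21 for the other 3. The cluster sum was at 131, 408, and 369 CPM in WT and 1065, 993, 1005, and 842 CPM in *Zeb1 200M* (1.37 with all libraries, 1.14 without WT replicate 1).

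MiR-34a-5p, a p53-induced miRNA from another locus with the seed of miR-34b-5p, did not share this direction. It was at 254, 487, and 458 CPM in WT and 362, 395, 389, and 417 CPM in *Zeb1 200M*. WT replicates 2 and 4 were above each *Zeb1 200M* library, and WT replicate 1 was below them. The log2 fold change was −0.38 and was called, as a decrease, only without WT replicate 1 (−0.43, edgeR, adjusted p = 0.0045). The sequences show the seed common to miR-34a-5p and miR-34b-5p and the seed common to the 3p arms of the cluster.
miR-34a-5p: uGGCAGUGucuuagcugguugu
miR-34b-5p: aGGCAGUGuaauuagcugauugu
miR-34b-3p: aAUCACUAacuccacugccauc
miR-34c-3p: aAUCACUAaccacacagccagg

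MiR-298-5p, from the imprinted *Nespas*-*Gnas* region of chromosome 2, was at 80.2, 115, and 137 CPM in WT and 312, 348, 288, and 312 CPM in *Zeb1 200M*. Its neighbour miR-296-3p, named after its values were seen, was at 65.2, 109, and 88.7 CPM in WT and 167, 199, 177, and 159 CPM in *Zeb1 200M*. Both were increased without overlap, by 1.14 and 0.62 on the log2 scale and by 1.16 and 0.66 without WT replicate 1. MiR-298-3p, the other arm, was at 1.05, 5.00, and 5.76 CPM in WT and 5.33, 6.31, 8.59, and 6.43 CPM in *Zeb1 200M*, overlapped, and was not called. The remaining strand, miR-296-5p, was called in neither fit. Summed, the cluster was at 478, 945, and 1177 CPM in WT and 1468, 1768, 1655, and 1592 CPM in *Zeb1 200M*. It was not called with 7 libraries (0.56, edgeR, adjusted p = 0.0635 over the clusters tested) and was increased without WT replicate 1 (0.42).

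Several increased miRNAs lie in introns of protein-coding genes. MiR-488-3p, in *Astn1*, was at 4.72, 17.6, and 13.6 CPM in WT and 33.4, 31.0, 34.3, and 33.5 CPM in *Zeb1 200M*. MiR-582-5p, in *Pde4d*, was at 4.72, 11.2, and 10.96 CPM in WT and 26.2, 23.9, 31.8, and 27.1 CPM in *Zeb1 200M*. MiR-701-5p, in *Ttc28*, was at 1.05, 2.13, and 1.99 CPM in WT and 4.95, 4.73, 4.12, and 5.56 CPM in *Zeb1 200M*. In each case the *Zeb1 200M* libraries were close to each other and above WT, and WT replicate 1 was the lowest of all 7. The opposite arms miR-488-5p (0, 0.0925, and 0.443 CPM in WT and 0.475, 0.105, 0.470, and 0.0975 CPM in *Zeb1 200M*) and miR-701-3p (0, 0.185, and 0.443 CPM in WT and 1.24, 0.631, 0.235, and 1.56 CPM in *Zeb1 200M*) were not tested with 7 libraries. Log2 fold changes of miR-488-3p, miR-582-5p, and miR-701-5p were 1.12, 1.25, and 1.10, and 0.92, 1.14, and 1.07 without that library. For miR-701-5p, WT replicate 1 was just below the expression filter, which was passed with 7 libraries only with *Zeb1 200M* libraries counted. The size of its change rests on few WT reads. The opposite arm of *Mir582* overlapped between groups (0.786, 1.85, and 1.55 CPM in WT and 2.19, 0.841, 3.18, and 3.70 CPM in *Zeb1 200M*) and was not called.

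Smaller increases were those of miR-328-3p and miR-145a-5p and, named after their values were seen, miR-326-3p, miR-149-5p, and miR-874-3p. MiR-328-3p was at 793, 1331, and 1453 CPM in WT and 2202, 2321, 2402, and 2249 CPM in *Zeb1 200M*, and miR-145a-5p, a miRNA of smooth muscle, at 645, 1198, and 1131 CPM and 1938, 1925, 1994, and 1635 CPM. MiR-326-3p, in an intron of *Arrb1*, was at 98.2, 164, and 199.7 CPM in WT and 333, 341, 391, and 297 CPM in *Zeb1 200M*. For each of the 5 miRNAs, the 4 *Zeb1 200M* libraries lay above the 3 WT libraries. MiR-149-5p, in *Gpc1*, changed by 0.74 and miR-874-3p, in *Klhl3*, by 0.64. Once WT replicate 1 was dropped, the 5 log2 fold changes were 0.56, 0.52, 0.74, 0.69, and 0.57.

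Arms of a hairpin mostly had the same sign where 1 of them was called. Of 193 hairpins with both arms tested, 20 had at least 1 arm called, and the other arm had the same sign in 19 of them. Over all 193 hairpins, called or not, both arms had the same sign in 125 (64.8%), and in 143 (74.1%) with WT replicate 1 left out. Both arms were called in one direction for 7 hairpins, the 5 miR-200 hairpins, *Mir31*, and *Mir34c*. Without WT replicate 1, 78 hairpins had an arm called and 22 had both arms called in one direction. Arms of a hairpin come from the same libraries and the same precursor and are not independent observations.

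Summed by seed, 591 families were tested and 32 were called (5.41%), 14 increased (2.37%) and 18 decreased (3.05%). Of the 56 families with 2 or more tested members, 5 were called, and the other 27 called families had a single tested member. The 5 were the guides of miR-200b, miR-200c, and miR-429 (seed AAUACUG, −3.65), the guides of miR-200a and miR-141 (AACACUG, −3.53), the 5p arms of miR-200a and miR-200b (AUCUUAC, −3.27), the 3p arms of miR-34b and miR-34c (AUCACUA, 1.08), and miR-326-3p with miR-330-5p (CUCUGGG, 0.61). With WT replicate 1 left out, 143 of 619 families were called (23.1%), 81 increased (13.1%) and 62 decreased (10.0%). With library totals in place of TMM and all 7 libraries, 35 families were increased and 14 decreased. The miR-200 guides are shown to place their seeds beside those of the other changed miRNAs, none of which, where a sequence was at hand, has either of them.
miR-200b-3p: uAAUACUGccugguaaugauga
miR-200c-3p: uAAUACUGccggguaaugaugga
miR-429-3p: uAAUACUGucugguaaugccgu
miR-200a-3p: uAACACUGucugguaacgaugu
miR-141-3p: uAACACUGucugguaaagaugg

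The family of seed CUCUGGG joined miRNAs from distant loci of chromosome 7. Summed, it was at 385, 459, and 486 CPM in WT and 905, 880.2, 937, and 871 CPM in *Zeb1 200M*, without overlap (SE 0.15, edgeR, adjusted p = 0.0472 over the families tested). MiR-330-5p, named after its values were seen, was at 287, 294, and 286 CPM in WT and 572, 539.6, 546, and 573 CPM in *Zeb1 200M*. It was called only without WT replicate 1 (0.78), although its WT libraries were nearly equal, since TMM raises the scaled level of WT replicate 1. The miR-34b/c family of 3p arms was at 32.7, 39.2, and 43.1 CPM in WT and 116, 108, 107, and 96.1 CPM in *Zeb1 200M* (edgeR, adjusted p = 0.00313).
miR-326-3p: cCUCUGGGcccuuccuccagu
miR-330-5p: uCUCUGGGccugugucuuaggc

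The miR-29 and miR-19 families were called only without WT replicate 1. The miR-29 family, which targets collagen mRNAs among others, was at 62969.9, 101145, and 97705 CPM in WT and 144509, 128952, 142541, and 119814 CPM in *Zeb1 200M*. WT replicate 1 was the lowest library, and every *Zeb1 200M* library was above every WT library. Its log2 fold change was 0.25 and missed the threshold, and without WT replicate 1 it was 0.25 and was called (edgeR, adjusted p = 0.0416). The miR-19 family, from the proliferation-linked *Mir17* and *Mir106a* clusters, was at 331, 2648, and 2993 CPM in WT and 2113, 2131, 2087, and 2146 CPM in *Zeb1 200M*, and was decreased only without WT replicate 1 (−0.58). In that library it was several times lower than in any other, so that with all WT libraries the value was −0.15 with an SE of 0.48, and 0.0899 with library totals in place of TMM.

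In 2 seed families, as far as sequences were at hand, members were called in opposite directions once WT replicate 1 was left out. The first was that of miR-34a-5p and miR-34b-5p. The second joins miR-384-5p, known from neurons, to miR-30a-5p, miR-30c-5p, and miR-30e-5p. MiR-34c-5p, miR-30b-5p, and miR-30d-5p, which carry the names of these families, had no RefSeq sequence at hand and were counted alone. MiR-384-5p was at 513, 602, and 657 CPM in WT and 1238, 1142, 1201, and 1095 CPM in *Zeb1 200M*, without overlap, and was increased without WT replicate 1 (0.73, edgeR, adjusted p = 1.88e-04). MiR-30e-5p was at 5257, 10575, and 11028 CPM in WT and 10479, 10314, 10919, and 10440.3 CPM in *Zeb1 200M*. Apart from WT replicate 1 these values were nearly the same in all libraries, and the log2 fold change of −0.20 that edgeR called without that library (adjusted p = 0.0498) was a change relative to the TMM scale. With all WT libraries it was −0.10, which turned positive (0.24) with library totals in place of TMM. On the CPM scale before TMM, miR-30e-5p thus hardly moved apart from WT replicate 1, while miR-384-5p rose.
miR-384-5p: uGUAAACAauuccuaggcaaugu
miR-30e-5p: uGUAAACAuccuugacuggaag

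By genomic cluster (hairpins within 10 kb of each other on a strand, miRNAs of several loci left out), 285 clusters were tested and 28 were called (9.82%), 14 in each direction (4.91%). As false calls of clusters exceeded the threshold on simulated data, cluster calls close to 0.05 are less certain than those of miRNAs. Against WT replicates 2 and 4 the counts were 77 of 302 (25.5%), 39 increased (12.9%) and 38 decreased (12.6%). With library totals in place of TMM and all 7 libraries, 45 clusters were increased and 6 decreased. Of the 44 called miRNAs, 38 could be placed at a single locus, in 22 clusters, and the 35 with a RefSeq sequence had 29 different seeds. Of the called clusters, 19 had 2 or more tested members and 9 had no member that was called alone. The largest changes among clusters with 2 or more tested members were those of *Mir200c*-*Mir141* (−3.92), *Mir200b*-*Mir429* (−3.11), *Mir183*-*Mir182*, *Mir31* (−1.56), *Mir344h-2*-*Mir344d-3*, and *Mir34b*-*Mir34c*. *Mir670* (−1.27), *Mir582* (1.15), *Mir335*, *Mir375* (−1.02), *Mir151* (−0.85), and *Mir149* (0.72) followed. Without 1 of the *Zeb1 200M* libraries the number of called clusters was between 7 (replicate 3) and 15 (replicate 4), and without WT replicate 2 it was 15.

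*Mir375* (chr1:74900658-74900721) was the most abundant cluster among the calls. Its sum was 145176, 103461, and 108253 CPM in WT and 82296, 76876, 77064, and 94597 CPM in *Zeb1 200M*, nearly all of it miR-375-3p. At the level of the single miRNA, miR-375-3p had a log2 fold change of −1.01 that missed the threshold (SE 0.28, edgeR, adjusted p = 0.0764). The cluster, tested among fewer features, was called (edgeR, adjusted p = 0.0377). Once WT replicate 1 was dropped, the highest of the WT libraries, the decrease of miR-375-3p was −0.51 (edgeR, adjusted p = 0.00167). WT replicate 1 thus held the highest level and widened the spread within WT.

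The largest clusters were not called as wholes with 7 libraries. On chromosome 12, the maternally expressed miRNAs of the *Dlk1-Dio3* region fall into a pair of clusters. The first runs over 14 hairpins from *Mir770* to *Mir136* (chr12:109563692-109595388) and overlaps *Meg3* and, on the opposite strand, *Rtl1*. The second runs over 38 hairpins from *Mir379* to *Mir3072* (chr12:109709060-109747960) and overlaps *Mirg*. The first summed to 56958, 53329, and 52335 CPM in WT and 52488, 54447, 53760.2, and 50975 CPM in *Zeb1 200M*. The second summed to 31328, 39444, and 40068 CPM in WT and 40703, 43508, 43390.1, and 38775 CPM in *Zeb1 200M*. In both, the *Zeb1 200M* and WT values overlapped. Log2 fold changes were −0.49 and −0.24 and were not called. Without WT replicate 1 they were −0.19 (edgeR, adjusted p = 0.0219 over the clusters tested, called) and −0.13 (not called). The 7-library values of both turned slightly positive (0.01 and 0.22) with library totals in place of TMM. Of 69 miRNAs tested in the second, the only calls with 7 libraries were the decreases of miR-679-5p and miR-494-3p, and in the first 0 of 24 were called by edgeR, with 4 at an unadjusted p below 0.05 and 2 called by DESeq2 (miR-434-5p and miR-770-3p, named after their values were seen).

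Single members of these clusters were called once WT replicate 1 was left out. In the second cluster, 9 increased and 10 decreased miRNAs were then called among 70 tested (27.1%, against 23.9% of all miRNAs tested). The largest of these increases, named after its values were seen, was that of miR-544-3p, at 24.9, 196, and 191 CPM in WT and 609, 538, 665, and 405 CPM in *Zeb1 200M* (1.36, edgeR, adjusted p = 1.43e-04, and 1.77 with WT replicate 1, not called). WT replicate 1 was far below the other WT libraries, and *Zeb1 200M* replicate 4 was the lowest of the *Zeb1 200M* libraries. Its other arm, miR-544-5p, was at 1.57, 23.3, and 15.4 CPM in WT and 57.6, 52.3, 58.1, and 34.5 CPM in *Zeb1 200M*, with the same order. In the first cluster, 3 of 24 were called without WT replicate 1, both arms of *Mir770* as increased and miR-434-5p as decreased (−0.35). MiR-770-5p was at 254, 132, and 139 CPM in WT and 319.5, 298, 293, and 301 CPM in *Zeb1 200M*. Here WT replicate 1 came close to the *Zeb1 200M* libraries, and the log2 fold change was 0.26 with it and 1.00 without it. MiR-770-3p, even across the WT libraries at 39.3, 35.1, and 39.0 CPM and at 81.1, 87.6, 80.1, and 78.1 CPM in *Zeb1 200M*, changed by 0.69 (not called) and 0.98. The *Mir544* and *Mir770* arms were all chosen after their values were seen.

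**Figure D3:**
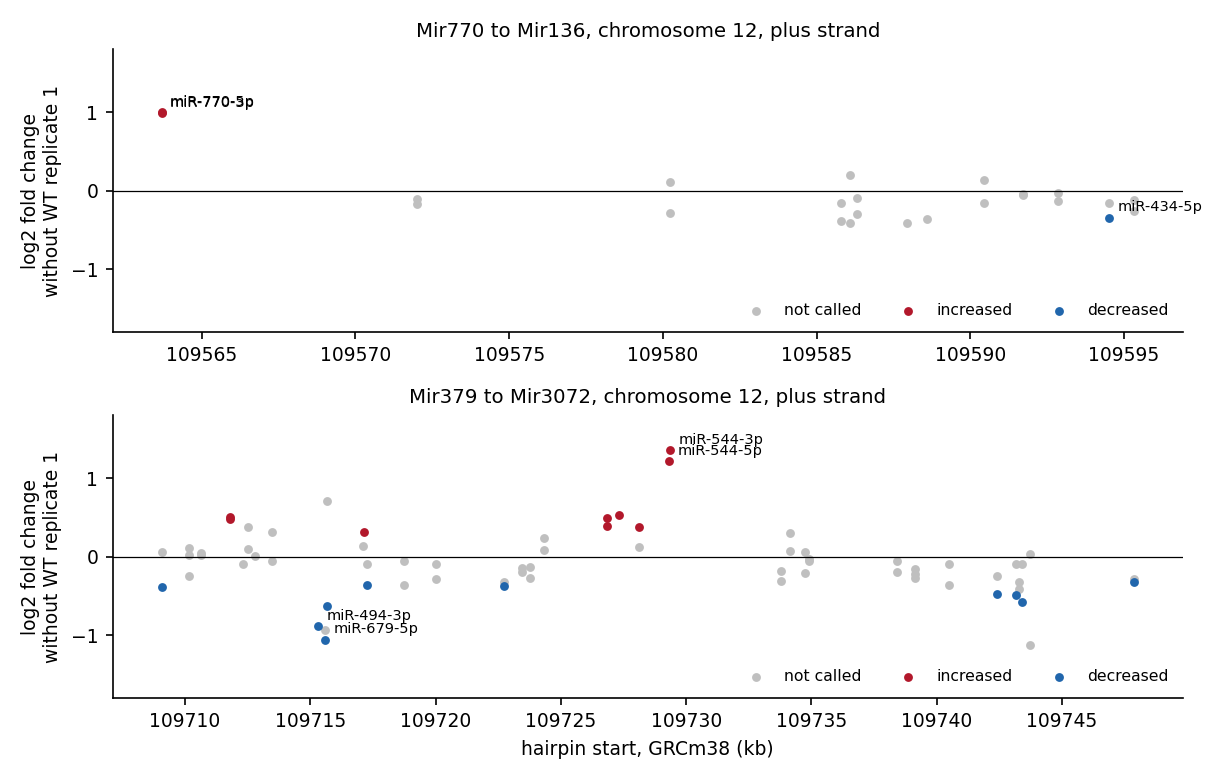
The horizontal axes give the start of each hairpin on chromosome 12 (GRCm38, kb) and the vertical axes the log2 fold change of *Zeb1 200M* over WT replicates 2 and 4, with 1 point for each miRNA tested, for the cluster from *Mir770* to *Mir136* (top) and from *Mir379* to *Mir3072* (bottom). Both directions occur along the second cluster (9 increased and 10 decreased of 70), partly in runs of neighbours with the same direction. Both arms of *Mir770* and of *Mir544* lie between 0.98 and 1.36 on the vertical axis.

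The other clusters with 10 or more tested members were likewise not called as sums with 7 libraries. *Mir322*-*Mir450b* on the X chromosome (11 tested) summed to 205, 234, and 212 CPM in WT and 318, 331, 289.8, and 355 CPM in *Zeb1 200M*, with 0.15 and, without WT replicate 1, a called 0.35. The repeat-rich *Mir466m*-*Mir669h* cluster in an intron of *Sfmbt2* (31 tested) summed to 1879, 1318, and 1329.8 CPM in WT and 1396, 1735, 1694, and 1795 CPM in *Zeb1 200M*, with −0.37 that turned to 0.13 without WT replicate 1 and to 0.17 with library totals. *Mir532*-*Mir500* in an intron of *Clcn5* (10 tested) summed to 507, 1009, and 1057 CPM and 1045, 1119.9, 1079, and 982 CPM, with −0.05, which was 0.36 with library totals. Apart from *Mir322*-*Mir450b*, whose *Zeb1 200M* libraries were all above WT, these sums overlapped.

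Decreased miRNAs were more abundant in WT than increased ones, with both directions in the middle of the range. The median WT level was 80.9 CPM for the 18 increased miRNAs, 845 CPM for the 26 decreased, and 34.1 CPM for all 678 tested. Below 10 CPM, 5 were increased and 1 was decreased of 244 tested (2.46% called), the decreased one being miR-429-5p. From 10 to 100 CPM the counts were 6 and 8 of 167 (8.38%), and from 100 to 1000 CPM 6 and 4 of 168 (5.95%). Above 1000 CPM, 1 was increased, miR-328-3p, and 13 were decreased of 99 (14.1%), 8 of them outside the miR-200 strands. Over all miRNAs tested, the median log2 fold change was 0.09 below 10 CPM and −0.27 above 1000 CPM. Precision changed along with abundance, as the median SE of the log2 fold change was 0.38 below 10 CPM and 0.20 above 1000 CPM. Median GC content was 45.5% in the increased, 45.6% in the decreased, and 47.8% in all tested miRNAs with a sequence.

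With WT replicate 1 left out, decreases still outnumbered increases above 1000 CPM, and increases outnumbered decreases in every range below. The ranges were again set by WT levels, with the same limit. Of 108 miRNAs above 1000 CPM, 6 were increased and 30 decreased (33.3%). From 100 to 1000 CPM, 36 were increased and 19 decreased of 159, from 10 to 100 CPM 35 and 20 of 173, and below 10 CPM 17 and 5 of 263. The 94 increased miRNAs together averaged 59452 CPM in WT replicates 2 and 4 and 95915 CPM in *Zeb1 200M*. For the 74 decreased the mean sums were 289301 CPM in WT replicates 2 and 4 and 193682 CPM in *Zeb1 200M*. Members of both sums were called on these same values, so the direction of each sum was fixed in advance. Such shares are relative, since reads that a few abundant miRNAs give up are taken by others. With library totals in place of TMM, a scaling picked with the data in view, the median log2 fold change over the miRNAs tested was 0.34, the calls were 39 increased and 19 decreased, and none of the 44 changed sign. Of the 44, 35 were called again, and miR-151-5p, miR-152-3p, miR-181b-5p, miR-31-3p, miR-335-3p, miR-484, miR-488-3p, miR-494-3p, and miR-670-3p were not, 8 of these being decreased.

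Of the 10 most abundant WT miRNAs, edgeR called 0 with 7 libraries, with 3 at an unadjusted p below 0.05, and DESeq2 called 2, miR-375-3p and miR-29b-3p. The 10 were miR-7a-5p, miR-375-3p, miR-7b-5p, miR-29a-3p, miR-29b-3p, miR-127-3p, miR-26a-5p, let-7c-5p, let-7f-5p, and let-7a-5p. Log2 fold changes ranged from −1.01 for miR-375-3p to 0.54 for miR-29b-3p. MiR-29b-3p was at 18297, 39405, and 36774 CPM in WT and 63078, 52696, 62106, and 52307 CPM in *Zeb1 200M*, above WT in each library. MiR-29a-3p was at 31852, 39855, and 39807 CPM in WT and 51782, 48709, 51034, and 43706 CPM in *Zeb1 200M*, also above WT in each library, yet its log2 fold change was −0.01 after TMM and 0.39 with library totals. MiR-7b-5p (−0.16) and let-7c-5p (−0.42) were likewise negative after TMM and positive with library totals (0.25 and 0.02). Against WT replicates 2 and 4, miR-375-3p and miR-29b-3p were called, the latter with 0.44 (edgeR, adjusted p = 0.00431).

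Lists of miRNAs known from particular cell types were read next to the medians over all miRNAs tested, −0.003 with 7 libraries and 0.04 without WT replicate 1. Of all miRNAs tested, 2.65% were increased and 3.83% decreased with 7 libraries, and 13.4% and 10.5% without WT replicate 1. Of 19 epithelial and sensory miRNAs other than miR-200, 13 were tested and 7 were decreased, with a median log2 fold change of −1.15. The list summed to 4188, 5806, and 6333 CPM in WT and 1852, 1777, 1704, and 1937 CPM in *Zeb1 200M*, and its most abundant member was miR-205-5p. The 7 came from the *Mir205*, *Mir183*, and *Mir31* loci alone. The strands of *Mir203*, another epithelial locus, chosen after their values were seen, hardly changed (−0.06 for miR-203-3p.1, −0.03 for miR-203-3p.2, and −0.05 for miR-203-5p). The list sum of every *Zeb1 200M* library was below that of every WT library. Once WT replicate 1 was dropped, 9 of 14 were decreased, among them miR-205-3p, which passed the filter only through WT.

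Of 26 neuronal and brain miRNAs, 23 were tested and 5 were increased (the 3 miR-124 sequences, miR-488-3p, and miR-344d-3p), against 2.65% of all miRNAs tested, with a median of 0.35. Among the 5, miR-124-5p passed the filter through the *Zeb1 200M* libraries. The list summed to 19602, 26389, and 27565 CPM in WT and 35202, 34212, 36248, and 30082 CPM in *Zeb1 200M*, lowest in WT replicate 1 and higher in every *Zeb1 200M* library than in any WT library. Its most abundant member, miR-132-3p, an activity-regulated miRNA, was at 6276, 5809, and 6303 CPM in WT and 5726, 7072, 7474, and 6295 CPM in *Zeb1 200M*, overlapped, and was not called (−0.32, and 0.12 with library totals). Without WT replicate 1, 11 were increased (13.4% of all miRNAs tested were) and 2, both of miR-129, decreased. Examples in each direction, chosen after their values were seen, were miR-9-5p, a neural miRNA, at 199, 220.2, and 233 CPM in WT and 372, 394, 318, and 401 CPM in *Zeb1 200M* (0.55), and miR-129-5p at 1037, 1590.3, and 1523 CPM in WT and 1492, 1322, 1253, and 1349 CPM in *Zeb1 200M* (−0.36). The list thus did not move as one. Whether neural tissue in the dissected gland had a part in these values was not tested.

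The 6 listed endocrine miRNAs were all tested, and edgeR called 0 with 7 libraries (median −0.23), with 2 at an unadjusted p below 0.05 and 1, miR-375-3p, called by DESeq2. Their sum was 369402, 270288, and 274095 CPM in WT and 232665, 257697, 236432, and 280699 CPM in *Zeb1 200M*, with WT replicate 1 the highest and *Zeb1 200M* replicate 4 above both other WT libraries. With WT replicate 1 left out, both arms of miR-375 were decreased. All 16 mesenchymal and vascular miRNAs were tested, and 1 was increased, miR-145a-5p (median 0.27, and 4 increased without WT replicate 1, against 13.4% of all miRNAs tested, miR-143-5p, miR-145a-5p, miR-199b-5p, and miR-199a/b-3p). Their sum was 28198, 20380.3, and 19253 CPM in WT and 26149.8, 24991, 24484, and 24966 CPM in *Zeb1 200M*, and the most abundant, miR-22-3p, was at 18113, 8471, and 8149 CPM in WT and 9997, 9708, 11209.7, and 9834 CPM in *Zeb1 200M*. WT replicate 1 was far above all other libraries for miR-22-3p, whose log2 fold change was −0.74 with that library and 0.13 without it, called in neither fit. Of 11 blood and immune cell miRNAs, edgeR called 0 with 7 libraries (median 0.13), with 3 at an unadjusted p below 0.05 and 1, miR-223-3p, called by DESeq2. Against WT replicates 2 and 4, miR-150-5p was increased. Their sum was 6148, 8902, and 11107 CPM in WT and 11754, 10893, 11052, and 12803 CPM in *Zeb1 200M*, mostly miR-451a of erythroid cells (2721, 6076, and 7699.7 CPM in WT and 7826, 7646, 7432, and 9087 CPM in *Zeb1 200M*). The part of these cell types in the result was not tested.

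MiR-143-3p, which shares a primary transcript with miR-145a-5p, showed a single library apart and is named after its values were seen. It was at 1222, 1109, and 1264 CPM in WT, and at 2474, 2234, 26.1, and 2172 CPM in *Zeb1 200M* replicates 1 to 4. In *Zeb1 200M* replicate 3 this was 222 counts, while miR-145a-5p was at 1994 CPM in the same library. Among the virgin libraries heterozygous for the allele (label Zeb1_200H), replicate 3 was also the lowest. It was at 591 CPM, with replicates 1, 2, and 4 at 2008, 1468, and 1970 CPM. For miR-143-3p, the other 3 *Zeb1 200M* libraries were above all WT libraries. The log2 fold change was 0.10 with all 4 *Zeb1 200M* libraries (SE 1.00) and 0.50 without replicate 3, and it was not called in either fit (edgeR, adjusted p = 0.328 without that library).

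The list of muscle, liver, and cartilage miRNAs, tissues that are not part of the gland, held 10 miRNAs, all tested, and edgeR called 0 with 7 libraries (median 0.70), with 6 at an unadjusted p below 0.05 and 5 called by DESeq2 (miR-1a-3p, miR-133a-3p.1, miR-133a-3p.2/b-3p, miR-140-5p, and miR-140-3p.1). Once WT replicate 1 was dropped, 6 were increased, against 13.4% of all miRNAs tested. The list summed to 789, 741, and 800.4 CPM in WT and 1560.3, 1642, 1622, and 1679 CPM in *Zeb1 200M*, most of it from *Mir140*, a hairpin in *Wwp2* that is known from cartilage. Its most abundant strand, miR-140-3p.1, was at 288, 289.8, and 321 CPM in WT and 607, 664, 641, and 643 CPM in *Zeb1 200M*. MiR-140-5p, chosen after its values were seen, was at 230.3, 232, and 247 CPM in WT and 507, 509, 559, and 523 CPM in *Zeb1 200M*. Groups did not overlap for either strand, with log2 fold changes of 0.67 and 0.73 that missed the threshold (edgeR, adjusted p = 0.0585 and 0.0531) and 0.90 and 0.97 without WT replicate 1.

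Muscle miRNAs were scarce and uneven. MiR-1a-3p, chosen after its values were seen like both that follow, was at 4.98, 8.98, and 4.10 CPM in WT and 27.4, 34.2, 8.11, and 48.3 CPM in *Zeb1 200M*. MiR-133a-3p.1 was at 3.93, 5.00, and 2.22 CPM in WT and 10.1, 17.9, 5.17, and 22.9 CPM in *Zeb1 200M*, and miR-206-3p at 0.262, 0.0925, and 0.111 CPM and 1.33, 1.05, 0.706, and 2.63 CPM. *Zeb1 200M* replicate 4 had the most and replicate 3 the least of each in that group. For miR-1a-3p and miR-133a-3p.1 the log2 fold changes without WT replicate 1 were 2.00 and 1.78, and edgeR called both. MiR-206-3p was called too, but it was at the detection limit in every WT library, so that its fold change is not given. The cluster *Mir206*-*Mir133b*, in which it was the only tested member, was called as increased with 7 libraries (edgeR, adjusted p = 0.0448 over the clusters tested). Only *Zeb1 200M* libraries reached the filter level for miR-206-3p, so that neither call adds support for an increase of muscle miRNAs. Whether muscle carried over in dissection had a part in the muscle miRNA values was not tested.

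Of 10 miRNAs of the miR-34 and miR-449 family, 8 were tested and 3 were increased (median 0.99), against 2.65% of all miRNAs tested, and miR-449a-3p and miR-449c-3p were at 0 in all 7 libraries. The list summed to 389, 905, and 837 CPM in WT and 1437, 1403, 1408, and 1279.9 CPM in *Zeb1 200M*. The increased members were the 3 strands of the *Mir34b*-*Mir34c* cluster. Without WT replicate 1, 4 were increased and 1, miR-34a-5p, was decreased.

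The 124 miRNAs that were called only without WT replicate 1 split into 76 increased and 48 decreased. Of these, 121 had been tested with all libraries, and in 115 of the 121 WT replicate 1 lay outside the range of WT replicates 2 and 4, as it did for 617 of all 678 tested (91.0%). The sign was the other one for 4, named after their values were seen. They were miR-146b-5p (−0.02 with 7 libraries, 0.39 without WT replicate 1), miR-322-5p (−0.08, 0.56), miR-330-3p.1 (−0.01, 0.79), and miR-539-5p (−0.25, 0.38). In each of them WT replicate 1 was the highest WT library. For miR-330-3p.1, WT libraries held 140.2, 64.1, and 73.1 CPM and *Zeb1 200M* libraries 127, 138, 126, and 140 CPM, so that WT replicate 1 was level with the highest of the *Zeb1 200M* values.

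The most abundant added decreases were those of miR-375-3p, miR-335-5p, let-7b-5p, miR-30e-5p, miR-30d-5p, and miR-30b-5p, and the most abundant added increases those of miR-29b-3p, miR-135a-5p, miR-381-3p, miR-339-5p, miR-384-5p, and miR-341-3p. Let-7b-5p was at 15764, 17463, and 16945 CPM in WT and 16045, 15417, 15231, and 15794 CPM in *Zeb1 200M* (−0.30 without WT replicate 1), with WT replicate 1 inside the *Zeb1 200M* range. MiR-30d-5p was at 7293, 8118, and 8689 CPM in WT and 7898, 8348, 7886, and 8276 CPM in *Zeb1 200M* (−0.21), and miR-30b-5p at 4094, 7974, and 7888 CPM and 7420.1, 7132, 7795, and 7759.6 CPM (−0.24). For miR-30d-5p the CPM of the groups overlapped, and for miR-30b-5p the *Zeb1 200M* libraries lay just below WT replicates 2 and 4 and above WT replicate 1. With library totals in place of TMM the 7-library values of −0.40 and −0.16 turned to 0.01 and 0.18. TMM factors were 1.10 to 1.15 in the *Zeb1 200M* libraries and 0.98 and 1.01 in WT replicates 2 and 4. CPM before TMM therefore separates small increases more readily than small decreases. MiR-135a-5p was at 2528, 4205, and 4365 CPM in WT and 6054, 5819.9, 5669, and 6729 CPM in *Zeb1 200M*, miR-381-3p at 850.4, 1511, and 1400.4 CPM and 2076, 2118, 2146, and 2149 CPM. MiR-339-5p was at 649, 1029, and 951 CPM in WT and 1327, 1369.5, 1321, and 1287 CPM in *Zeb1 200M*, and miR-341-3p at 368, 595, and 637 CPM and 803, 895, 819, and 787 CPM. Each of these 4 was higher in every *Zeb1 200M* library than in every WT library, with log2 fold changes between 0.26 and 0.38 without WT replicate 1.

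Further added increases, chosen after their values were seen, are given by locus. On chromosome 11, miR-216a-5p, a miRNA of exocrine pancreas, was at 93.5, 151, and 162 CPM in WT and 269, 222, 279, and 263 CPM in *Zeb1 200M*, and miR-217-5p at 68.6, 58.8, and 64.1 CPM and 91.3, 86.7, 91.7, and 100.4 CPM. Their neighbour miR-216b-5p was at 51.1, 68.0, and 67.7 CPM and 89.0, 88.3, 108, and 107 CPM. All 3 separated the groups, and the log2 fold changes without WT replicate 1 were 0.56, 0.43, and 0.37. That of miR-217-5p ranged from −0.0544 to 0.43 with 1 library left out, so that its sign was not stable. On the X chromosome, miR-325-3p was at 81.2, 211, and 205 CPM in WT and 352, 396, 385, and 290.3 CPM in *Zeb1 200M* (0.61), and miR-384-3p, the other arm of miR-384-5p, at 64.2, 393, and 425 CPM and 685, 759, 794, and 458 CPM (0.56). *Zeb1 200M* replicate 4 was the lowest of its group for both, and WT replicate 1 the lowest of all.

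**Figure D4:**
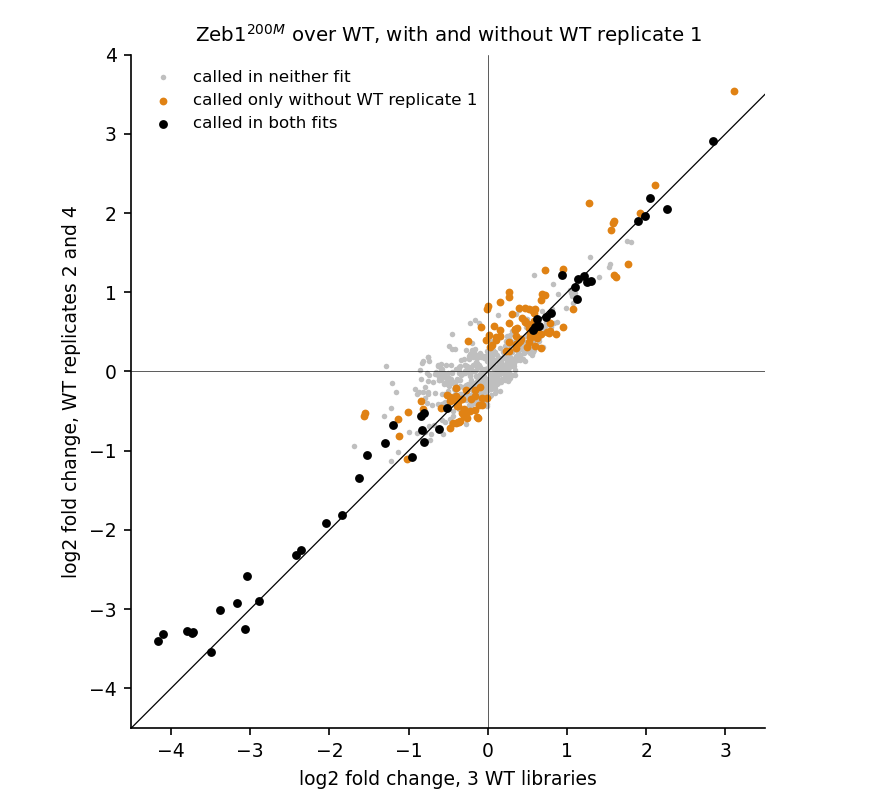
Each point is a miRNA tested in both fits, with the log2 fold change against 3 WT libraries on the horizontal axis and against WT replicates 2 and 4 on the vertical axis, the line of equality, and colours for the calls. The 44 miRNAs called in both fits have the same sign in both, and the 121 called only without WT replicate 1 have a median absolute log2 fold change of 0.42 on the horizontal axis, against 1.41 for the 44, and 4 of them have the other sign.

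The same genotypes were also measured in females that had finished a breeding trial (28 to 36 weeks old, 4 WT and 3 *Zeb1 200M* libraries, 84093 to 191650 counted reads), which share no library with the virgin cohort. There, edgeR called 99 of 276 miRNAs (35.9%), 56 increased (20.3%) and 43 decreased (15.6%). With DESeq2 the calls were 32 increased and 41 decreased, and with its size factors in edgeR 50 and 52. Of the 34 virgin calls outside the miR-200 strands, 19 were tested there, all with the same sign, and 16 were called in the same direction. Over all calls, the shared 23 were 52.3% of the virgin calls and 23.2% of the breeding trial calls. Of the 124 calls added without WT replicate 1, 70 were tested there, 63 had the same sign, and 38 were called in the same direction. With that library left out, shared calls were 36.3% of the virgin calls and 61.6% of the breeding trial calls. Across the 264 miRNAs tested in both cohorts, Pearson's r of the log2 fold changes was 0.84, and 0.91 without WT replicate 1. MiRNAs are not independent replicates, and each cohort's fold changes share that cohort's WT libraries. No share with the same sign over all 264 is given, so the same-sign counts cannot be read as particular to the calls.

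Log2 fold changes in the breeding trial and, second, in the virgin cohort were −2.98 and −3.07 for miR-205-5p, −1.98 and −2.04 for miR-96-5p, and −1.73 and −1.85 for miR-182-5p. For miR-34c-5p they were 1.495 and 1.30. The breeding trial value was closer to the virgin value without WT replicate 1 for 160 of the 264 miRNAs tested in both cohorts, and for 11 of the 19 virgin calls outside the miR-200 strands. It was farther from it for miR-34c-5p and for miR-149-5p (1.20, virgin 0.74 with WT replicate 1 and 0.69 without). Examples of closer values were −0.62 for miR-375-3p (−1.01 with WT replicate 1, −0.51 without), −0.64 for miR-181a-5p (−1.20, −0.67), and −0.71 for miR-335-5p (−1.13, −0.60). MiR-770-5p was at 0.94 there (0.26, 1.00) and miR-140-5p at 1.00 (0.73, 0.97). Of the 3 virgin calls outside the miR-200 strands that were tested but not called there, miR-296-3p (0.54) and miR-874-3p (0.64) were near their virgin values, and miR-31-5p was at −0.21 beside −1.63 in the virgin cohort. The difference between the cohorts for miR-31-5p had an unadjusted p of 0.00221 in edgeR and was not called. Over all 485 miRNAs tested for a difference between cohorts, edgeR called 0, with 27 at an unadjusted p below 0.05, and DESeq2 called 0, with 33 at an unadjusted p below 0.05. Cohort, age, breeding, RNA input, instrument, and miRNA dictionary changed together and cannot be told apart.

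Of the 44 calls, 24 were made again with each of the 7 libraries left out in turn, 14 of them outside the miR-200 strands. Outside those strands they were miR-205-5p, the 4 sequences of the *Mir183* cluster, miR-31-5p, miR-124-3p.1, miR-124-3p.2, miR-202-5p, miR-344d-3p, miR-34b-3p, miR-34c-5p, miR-298-5p, and miR-582-5p. Another 10 lost the call without any of the 6 libraries other than WT replicate 1, while their log2 fold changes kept their sign. These were miR-31-3p (−1.08 to −0.85 over the 7 fits), miR-34c-3p (0.79 to 1.22), miR-145a-5p, miR-152-3p, miR-181b-5p (−0.92 to −0.53), miR-296-3p, miR-328-3p, miR-484, miR-701-5p, and miR-874-3p, with edgeR and adjusted p values of at most 0.174. Calls of miR-151-5p, miR-181a-5p, and miR-679-5p were lost without any single *Zeb1 200M* library, and that of miR-149-5p also without WT replicate 2. MiR-488-3p lost its call without any single *Zeb1 200M* library or WT replicate 4, and miR-670-3p and miR-494-3p theirs without *Zeb1 200M* replicate 1, 2, or 3 or WT replicate 2 or 4. MiR-326-3p was not called without *Zeb1 200M* replicate 1, 2, or 3 or WT replicate 2, miR-124-5p without WT replicate 2, and miR-335-3p without *Zeb1 200M* replicate 2. Across these 10, the highest edgeR and adjusted p was 0.173. With WT replicate 1 left out, miR-181a-5p went from −1.20 to −0.67 and miR-679-5p from −1.52 to −1.06.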

How the data were processed

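Small RNAs of 21 female mouse pituitaries were sequenced, and the 7 virgin WT and *Zeb1 200M* libraries were compared. Adapter removal (cutadapt), quality filtering, matching of read starts to a miRNA dictionary, and removal of standards and spike-ins were done by the authors. The deposited values used here are raw counts per miRNA and library. The 63 further per-sample columns and the authors' fold changes and p values (DESeq2, 1.38.3 for the virgin cohort) were not used.

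The test was the quasi-likelihood F test of edgeR 4.0.16 (R 4.3.3) after filterByExpr (minimum count 10, minimum total 15) and TMM, with Benjamini–Hochberg adjusted p values over all features tested and a threshold of 0.05. Seed families were sums over bases 2 to 8 for the 1596 of 1909 miRNAs with a RefSeq sequence (GRCm38.p6), the others standing alone. Clusters were sums over hairpins within 10 kb. Standard errors were derived from the F statistic. The test was checked on simulated data, where the share of false calls was above the 0.05 threshold for clusters and below it for miRNAs, families, the breeding trial, and the difference between cohorts. Simulated counts varied independently from feature to feature. No simulated library departed over many miRNAs as WT replicate 1 does, so the check does not cover that case. Intervals for single libraries are not given, since reads amplified by PCR are not independent molecules.

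Members and lists were chosen with earlier results of these data known. Named are list members that were called and the most abundant of each list, the 12 largest changes in each direction outside the miR-200 strands with their opposite arms, and the most abundant miRNAs in WT and among the calls. Called families and clusters with 2 or more tested members (up to 12 of each by fold change), clusters with 10 or more, and the 6 most abundant calls in each direction that need WT replicate 1 left out are named too. Others are said to be chosen after their values were seen.

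Alternatives were DESeq2 1.42.0, its size factors in edgeR, limma 3.58.1 voom with sample quality weights, a robust fit, all 3 virgin genotypes in the fit, TMM without the miR-200 strands, other filters, thinned counts, the replicate number as a block, seeds of bases 2 to 7, clusters within 50 kb, an adjusted p below 0.01, and each library left out. Library totals in place of TMM were added after the data were seen.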

Additional observations from a re-analysis of the deposited data

Results flagged for a closer look

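Among the 4 *Zeb1 200M* libraries, 3 of 101 sets of values examined had a library far from the rest, by the gap to its nearest neighbour relative to the range. Chance alone sets apart about 1 in 20. For miR-143-3p, replicate 3 was the lowest, at 26.1 CPM, with the others at 2474, 2234, and 2172 CPM. For miR-151-5p, replicate 4 was the lowest, at 1042 CPM, with the others between 1205 and 1214 CPM. For miR-322-5p, replicate 4 was the highest, at 132 CPM, with the others between 106 and 110.2 CPM.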

How the results depend on the processing

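The count of 44 called miRNAs was 25 at an adjusted p below 0.01, 87 with DESeq2, 90 with all 3 virgin genotypes in the fit, and 184 with limma voom and sample quality weights, and 25 to 168 with 1 library left out. With the other filters, size factors, thinned counts, the robust fit, and TMM without the miR-200 strands it was 36 to 49. Called families (32) were 73 with DESeq2 and 20 to 143 with 1 library left out. Called clusters (28) were 42 with DESeq2 and 7 to 77 with 1 library left out. Among the fits with 1 library left out, the highest of these 3 counts came without WT replicate 1. The breeding trial count of 99 was 73 with DESeq2 (32 increased and 41 decreased) and 76 to 98 with 1 library left out. For the difference between cohorts, edgeR called 0 (27 at an unadjusted p below 0.05), DESeq2 0 (33), and edgeR with no filter on low counts 5, miR-144-3p, miR-1a-3p, miR-467a-5p, miR-467d-5p, and miR-540-5p, seen only then. It was 0 with each library left out.

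Library totals in place of TMM, a choice made with the data in view, put the median log2 fold change at 0.34 and moved calls to 58 miRNAs (39 increased), 49 families (35 increased), 51 clusters (45 increased), and 109 breeding trial miRNAs (83 increased). Log2 fold changes of named items then turned to 0.0185 for let-7c-5p, 0.12 for miR-132-3p, 0.44 for miR-146b-5p, 0.39 for miR-29a-3p, 0.18 for miR-30b-5p, 0.0123 for miR-30d-5p, 0.24 for miR-30e-5p, 0.42 for miR-322-5p, 0.53 for miR-330-3p.1, 0.26 for miR-539-5p, 0.25 for miR-7b-5p, 0.0899 for seed GUGCAAA, 0.22 for *Mir379*-*Mir3072*, 0.17 for *Mir466m*-*Mir669h*, 0.36 for *Mir532*-*Mir500*, and 0.0113 for *Mir770*-*Mir136*.

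With limma voom they turned to −1.17 for miR-143-3p, 0.37 for miR-146b-5p, 0.0753 for miR-22-3p, 0.11 for miR-29a-3p, 0.48 for miR-322-5p, 0.74 for miR-330-3p.1, and 0.32 for miR-539-5p. With no filter on low counts they turned to 0.0767 for miR-146b-5p, 0.0728 for miR-29a-3p, 0.0281 for miR-322-5p, and 0.11 for miR-330-3p.1, with a mean WT CPM above 1 to 0.00421 for miR-29a-3p and 0.0029 for miR-330-3p.1, and with all 3 genotypes to 0.0063 for miR-330-3p.1. With 1 library left out, the ranges that cross 0 were −0.13 to 0.50 for miR-143-3p, −0.22 to 0.39 for miR-146b-5p, −0.0544 to 0.43 for miR-217-5p, −1.02 to 0.13 for miR-22-3p, −0.052 to 0.13 for miR-29a-3p, −0.31 to 0.56 for miR-322-5p, −0.30 to 0.79 for miR-330-3p.1, −0.49 to 0.38 for miR-539-5p, −0.24 to 0.0118 for miR-7b-5p, −0.58 to 0.20 for seed GUGCAAA, −0.52 to 0.13 for *Mir466m*-*Mir669h*, and −0.16 to 0.0527 for *Mir532*-*Mir500*. MiR-22-3p turned without WT replicate 1, and miR-143-3p turned without *Zeb1 200M* replicate 1, 2, or 4 or WT replicate 2. The cause was not tested.

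With replicate number as a replicate block, 20 miRNAs, 15 families, 6 clusters, and 87 breeding trial miRNAs were called, and log2 fold changes turned to 0.0308 for miR-146b-5p, 0.12 for miR-322-5p, 0.26 for miR-330-3p.1, and 0.19 for seed GUGCAAA. After removal of group means, libraries of the same number correlated at −0.0816, 0.096, and −0.30 in the virgin cohort, so pairing by number has no support there. Estimates were less precise for scarce miRNAs, with a median SE of 0.38 below 10 CPM and 0.20 above 1000 CPM. The groups held 4 and 3 mice. Which of depth, mouse number, and spread within WT limits the calls most was not tested.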
